A study of Mus musculus with 72 samples.

Results

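The immediate early genes examined here were Fos, Fosb, Jun, Junb, Egr1, Egr2, Atf3, Nr4a1, Ier2 and Dusp1. They were 10 of the 55416 genes counted, chosen by name with earlier results of these data known, and each matched 1 Ensembl identifier. They were followed in epididymal white adipose tissue (eWAT), liver and pituitary of 24 male mice of a sighted FVB strain (FVB.129P2), which gave 72 libraries. FED mice came from dams fed ad libitum, and CR20 mice from dams restricted in calories by 20% from late pregnancy until weaning. From 8 weeks of age the offspring ate a diet with 10% of energy as fat (CTRL) or 45% (HFD). The study's results give 10 weeks on the diet for these mice, while its methods and the labels give 10 or 16. The 4 groups were therefore FED-CTRL, FED-HFD, CR20-CTRL and CR20-HFD, with 6 mice each, and the same mouse number in different tissues is the same animal. The dam and litter of each mouse were not given, so the spread between mice of a group includes any spread between litters.

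Immediate early genes are transcribed within minutes of a stimulus, before any new protein is made, when kinases of the MAPK and cyclic AMP pathways act on factors already bound at their promoters. Fos, Fosb, Jun and Junb encode subunits of AP-1, a dimeric transcription factor of the basic leucine zipper (bZIP) class, and Atf3 encodes a related bZIP protein best known as a stress-induced repressor. Egr1 and Egr2 encode zinc finger transcription factors, and Egr2 is also known from macrophages and from myelinating Schwann cells. Nr4a1 encodes an orphan nuclear receptor that is induced in pituitary corticotrophs by hypothalamic signals, Ier2 a short nuclear protein, and Dusp1 a phosphatase that switches MAP kinases off again. Because their transcripts are short-lived, their levels can follow the state of the tissue shortly before it was taken. Whether they did so in these samples was not tested.

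Total counts ran from 9842813 to 27601208 per library, and levels are given as CPM, a gene's counts per 1000000 counts of the library after scaling its total by the trimmed mean of M values (TMM) within the tissue. A library with a count of 0 allows a level of up to 3 counts, which is 0.109 to 0.305 CPM by unscaled totals. Each tissue showed its defining markers: summed adipocyte markers in eWAT were 10153 CPM or more, hepatocyte markers in liver 70825 CPM or more, and anterior pituitary hormones and factors were abundant in every pituitary library. Several libraries stood apart in the immediate early genes themselves. In eWAT, FED-HFD mouse 23 was the highest of its group in 8 of 10 members, and also had the most macrophage marker RNA (10076 CPM) and the least adipocyte marker RNA (10153 CPM) of that group. CR20-HFD mouse 45 was the highest in 9 of 10 members in eWAT. It also had the most macrophage marker RNA (2299 CPM, group median 1827) and neutrophil marker RNA (9.89 CPM, group median 6.04) of its group. In the pituitary, FED-HFD mouse 12 was the highest of its group in 8 of 10 members and CR20-CTRL mouse 47 in 6 of 10. CR20-CTRL mouse 5 and FED-CTRL mouse 16 were each the highest in 7 of 10 members in eWAT. The library of mouse 5 was the shallowest of eWAT (11589675 counts), and it had the most smooth muscle marker RNA (653 CPM, group median 168) and neuron marker RNA (32.2 CPM, group median 1.2) and the least adipocyte marker RNA (11157 CPM) of its group. Epididymis and testis markers reached 135 CPM in eWAT of CR20-CTRL mouse 4 and 26.8 CPM in CR20-HFD mouse 6 (group medians 0.0743 and 0.0717). In FED-CTRL and FED-HFD eWAT they were at most 0.0457 and 0.0506 CPM. Their part in the results was not tested. Called differences are given with and without the mice on which they rest, and spreads and correlations within a tissue with and without a pair of mice in each tissue, chosen for their high values. In bulk tissue, fewer cells of a type and less RNA per cell cannot be told apart.

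The promoters of Fos, Jun, Egr2 and Atf3 are shown because Fos, Egr2 and Atf3 rose with diet in FED eWAT and Jun rose with diet in CR20 liver. Each runs from 250 bases before to 50 bases after the start of the canonical GENCODE transcript (GRCm39), read 5′ to 3′ on the gene's strand. They lie at chr12:85520408-85520707 (plus strand), chr4:94940410-94940709 (minus), chr10:67373442-67373741 (plus) and chr1:190915488-190915787 (minus), respectively. Capitals mark the half-site of the cyclic AMP response element (TGACG or, on the other strand, CGTCA), the TATA box (TATAAA) and the CArG box that serum response factor binds.
Fos: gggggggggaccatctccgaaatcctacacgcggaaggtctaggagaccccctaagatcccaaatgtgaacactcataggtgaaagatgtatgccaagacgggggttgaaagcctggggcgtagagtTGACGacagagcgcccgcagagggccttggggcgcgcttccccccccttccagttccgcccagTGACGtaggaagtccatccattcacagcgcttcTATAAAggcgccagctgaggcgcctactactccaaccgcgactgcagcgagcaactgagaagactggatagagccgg
Jun: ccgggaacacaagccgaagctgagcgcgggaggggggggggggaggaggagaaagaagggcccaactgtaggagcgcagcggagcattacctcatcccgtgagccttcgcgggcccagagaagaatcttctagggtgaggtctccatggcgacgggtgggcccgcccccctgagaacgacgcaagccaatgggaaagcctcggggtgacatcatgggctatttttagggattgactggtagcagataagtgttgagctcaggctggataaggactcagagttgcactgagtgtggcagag
Egr2: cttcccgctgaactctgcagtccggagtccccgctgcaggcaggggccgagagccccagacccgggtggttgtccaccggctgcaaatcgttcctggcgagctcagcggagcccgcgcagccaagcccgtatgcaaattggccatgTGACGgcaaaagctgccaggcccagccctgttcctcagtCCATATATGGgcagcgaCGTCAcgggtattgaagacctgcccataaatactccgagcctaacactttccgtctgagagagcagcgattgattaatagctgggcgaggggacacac
Atf3: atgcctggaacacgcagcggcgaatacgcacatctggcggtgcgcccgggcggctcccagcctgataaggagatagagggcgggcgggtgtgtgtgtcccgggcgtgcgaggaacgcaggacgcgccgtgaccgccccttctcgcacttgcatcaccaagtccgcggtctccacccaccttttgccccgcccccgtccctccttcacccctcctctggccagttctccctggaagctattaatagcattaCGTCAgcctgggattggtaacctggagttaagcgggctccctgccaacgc
The half-site was found on either strand in 9 of 10 member promoters, all but that of Jun, against 22.6% of 21757 protein-coding promoters of the same length. These were not matched for base composition. The half-site contains CG, and G and C made up 53.7% (Ier2) to 69.7% (Dusp1) of the member promoters. The part of base composition in the difference was not tested. The full palindromic element, which contains the half-site, was present in Ier2 and Dusp1 and in 2.45% of all promoters. A CArG box lay in the Egr2 promoter, from -65 to -56 relative to the start, and in 1.54% of all promoters. TATAAA was found in Fos, Junb and Nr4a1 and in 13.2% of all promoters. The AP-1 site TGACTCA (4.7% of promoters) and the Ets site CCGGAAG (10.3%) were in 0 of 10 of these windows, which says only that these letters are not there. The half-site was searched after a first search for the full element had been seen.

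Within each tissue, levels were ordered per kilobase of the canonical transcript, as the median over 24 libraries. In eWAT the order ran from Dusp1 (26.3 CPM per kb) and Jun (20.1) through Atf3 (14.8), Junb (13.7), Fos (9.19), Ier2 (9.12), Egr1 (4.21), Nr4a1 (3.17) and Egr2 (1.91) to Fosb (0.816). In liver Ier2 stood first at 26.7 CPM per kb, followed by Junb (10.7) and Dusp1 (10.2), while Fos (0.622), Egr1 (0.569), Nr4a1 (0.408), Egr2 (0.0761) and Fosb (0.034) were all below 1. In the pituitary Ier2 (19.9 CPM per kb), Junb (19.6) and Nr4a1 (17.6) led, and Atf3 was last at 0.574. In every tissue the ranges of all 9 pairs of neighbours in the order overlapped between libraries. The order depends on the transcript used. With the summed length of all annotated exons the pituitary median of Nr4a1 was 4.11 CPM per kb, placing it 7 of 10, and in eWAT Jun (20.1) stood above Dusp1 (15.8) and Ier2 (9.12) above Fos (8.23). Other neighbours changed places too.

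Between tissues most members differed, as did most genes. With the mouse as a block, 9 of 10 members differed between eWAT and liver in edgeR's quasi-likelihood test (adjusted p at most 0.055 and a log2 fold change of at least 0.58 in size), where 67% of 19210 genes did. Egr2 was higher in eWAT by 4.14 ± 0.289 (log2, SE, adjusted p = 5.5e-19) and Fos by 3.24, whereas Ier2 was lower by 2.17 on the log2 scale and Junb did not pass. Against liver, 8 of 10 members differed in the pituitary (76.8% of genes). The receptor gene Nr4a1 was higher there by 5.13 ± 0.338 (edgeR adjusted p = 3.8e-20), and Atf3 was lower, with a log2 fold change of -1.998. Against eWAT, 8 of 10 differed in the pituitary (71.4% of genes), from Atf3 (log2 fold change -4.55) to Nr4a1 (2.64). Fos did not pass (log2 fold change -0.37), and without the replicate block its value was 0.71, which did not pass either (adjusted p = 0.0796). Without the block 9 of 10 members were called, the one gained being Egr2 (-0.59, edgeR adjusted p = 0.00269). RNA of eWAT and pituitary was extracted with one reagent and that of liver with a column kit, so tissue and extraction cannot be told apart for liver. Pituitaries were put into buffer on ice and homogenized, whereas eWAT and liver were first frozen in liquid nitrogen. Tissue and collection therefore cannot be told apart for the pituitary.

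High-fat feeding of FED mice was followed first in eWAT, where the main question was whether the adult diet changed these genes and whether the mother's intake changed that response. Atf3, Egr2, Fos and Junb rose in FED-HFD mice. No member fell, and the other 6 did not pass the test. The count of 4 of 10 higher stood against 6.42% of 15964 genes called higher (8.01% called in either direction, and 1.58% lower). The median log2 fold change of the 10 members was 0.71, and that of all genes tested was 0.00.

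Atf3, the stress-induced repressor, ran from 19.6 CPM (median 23.5) to 31.1 CPM in FED-CTRL eWAT. In FED-HFD mice 10, 11, 12, 13, 23 and 40 it was 46.7, 42.5, 116, 95.4, 344 and 49.1 CPM. Every FED-HFD mouse was above every FED-CTRL mouse, and mouse 23 was far above the rest. The log2 fold change was 2.25 ± 0.431 (SE, n = 6 per group, edgeR adjusted p = 0.00326) and the exact two-sided permutation p was 0.00216, the smallest that 924 divisions allow.

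Egr2 ran from 3.09 CPM (median 4.36) to 6.04 CPM in FED-CTRL and was 10.0, 14.7, 20.9, 18.6, 50.04 and 6.93 CPM in the same FED-HFD mice. The groups again did not overlap, and mouse 23 was the highest. The log2 fold change was 2.21 ± 0.475 (edgeR adjusted p = 0.00529, exact permutation p = 0.00216). Atf3 and Egr2 were the 2 of 10 members whose groups did not overlap, against 6.76% of all genes tested.

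Among the AP-1 subunits, Fos ran from 8.64 CPM (median 16.8) to 29.96 CPM in FED-CTRL and was 29.97, 36.6, 43.2, 61.5, 142 and 19.5 CPM in the FED-HFD mice. Mouse 40 lay within the FED-CTRL range and mouse 23 far above it. The log2 fold change was 1.66 ± 0.448 (edgeR adjusted p = 0.02), but without mouse 23 it was 1.11 (adjusted p = 0.108). Junb ran from 19.6 CPM (median 22.4) to 29.2 CPM and, in FED-HFD, was 31.4, 27.6, 38.4, 35.3, 91.1 and 22.7 CPM. Its groups overlapped. Its log2 fold change of 0.82 ± 0.255 (edgeR adjusted p = 0.0421) was 0.41 without mouse 23 (adjusted p = 0.209). Fosb, a close relative of Fos, ran from 1.35 CPM (median 1.41) to 7.99 CPM in FED-CTRL and from 1.23 CPM (median 6.36) to 7.83 CPM in FED-HFD. Jun, the main partner of Fos, was 44.1 to 92.2 CPM (median 60.7) against 40.4 to 65.3 CPM (median 57.1). Both overlapped widely.

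Egr1, the best known zinc finger gene of the set, was 7.46 to 25.4 CPM (median 14.9) in FED-CTRL and 12.5 to 39.6 CPM (median 21.8) in FED-HFD eWAT. Nr4a1 was 5.17 to 12.2 CPM (median 7.54) and 6.28 to 16.3 CPM (median 7.17). Ier2 was 10.8 to 15.3 CPM (median 12.4) and 9.36 to 28.2 CPM (median 14.7). Dusp1, the MAP kinase phosphatase, was 46.1 to 63.4 CPM (median 57.7) and 39.9 to 100.5 CPM (median 50). All of these groups overlapped, and mouse 23 was the highest FED-HFD mouse in each.

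**Figure D1:**
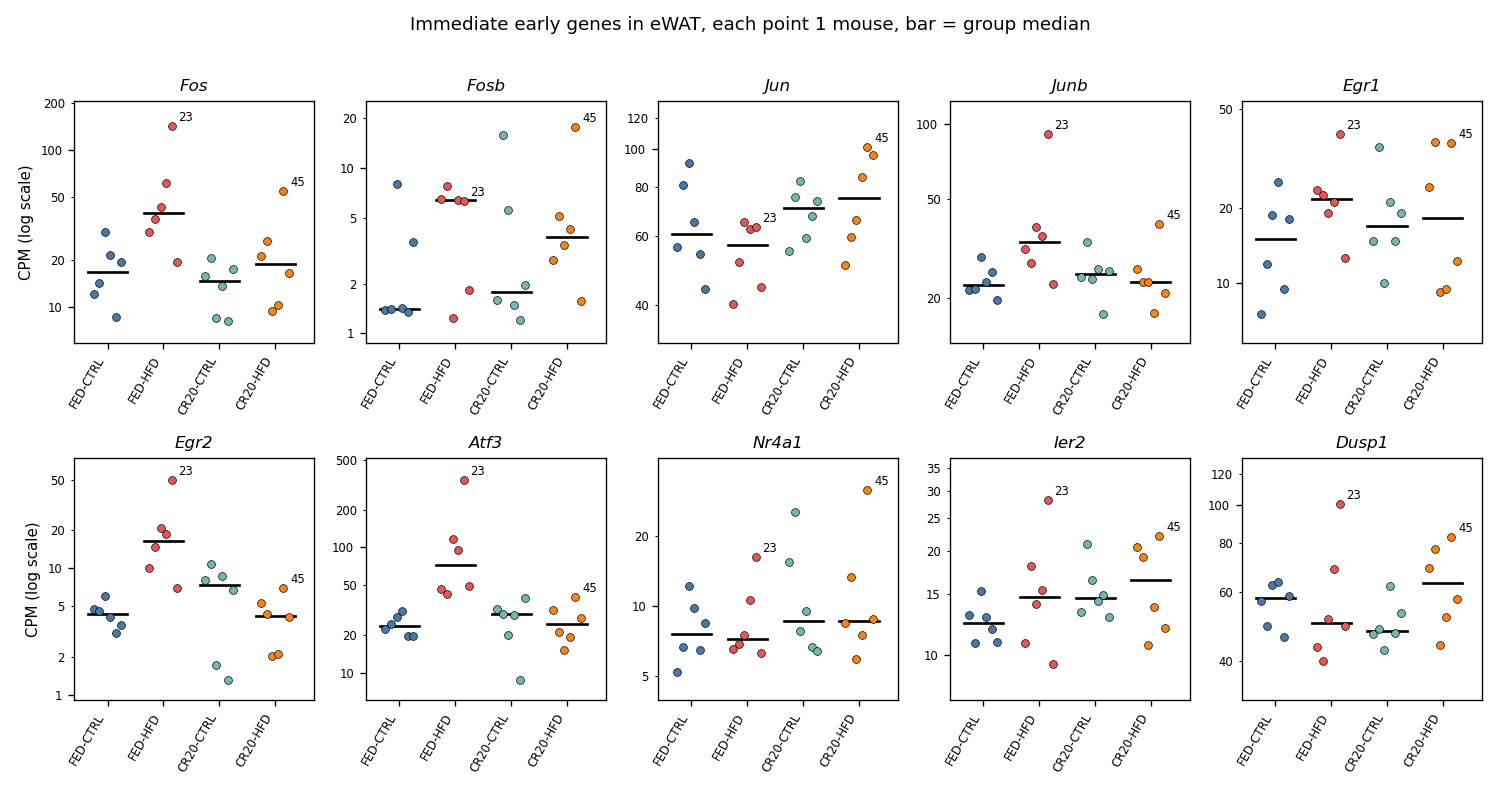
Each point is 1 mouse, with its level in CPM on a log axis and the group median as a bar, for the 10 genes in eWAT. Atf3 and Egr2 of all FED-HFD mice lie above all FED-CTRL mice, and mice 23 and 45 carry many of the highest values.

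In eWAT of CR20 mice the same comparison of diets had no member past the test: 0 of 10 members and 0% of 15964 genes passed in CR20-HFD against CR20-CTRL. The smallest p among members was that of Dusp1 (log2 fold change 0.35 ± 0.186, edgeR adjusted p = 0.872). At an unadjusted p under 0.05 the members numbered 0, against 962 of all genes, and limma voom and DESeq2 also called 0 members. Atf3 was 8.72 to 39.3 CPM (median 29.3) in CR20-CTRL and 15 to 39.9 CPM (median 24.3) in CR20-HFD. Egr2 was 1.3 to 10.9 CPM (median 7.39) and 2.03 to 7.02 CPM (median 4.21), so its CR20-HFD median was the lower one. The groups of all 10 members overlapped, where 0.113% of genes did not.

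The AP-1 genes of CR20 eWAT likewise overlapped between diets. Fos was 8.22 to 20.5 CPM (median 14.8) in CR20-CTRL and 9.5 to 55.0 CPM (median 18.9) in CR20-HFD, and Fosb 1.2 to 15.8 CPM (median 1.77) and 1.56 to 17.8 CPM (median 3.83). Jun was 54.9 to 82.7 CPM (median 70.6) and 50.7 to 101.2 CPM (median 75.2), and Junb 17.1 to 33.4 CPM (median 24.9) and 17.3 to 39.7 CPM (median 23.1). Egr1 was 10 to 35 CPM (median 16.9) and 9.15 to 36.7 CPM (median 18.3). The highest Fos, Fosb and Junb values of CR20-HFD all came from mouse 45. Nr4a1 was 6.41 to 25.3 CPM (median 8.61) and 5.89 to 31.6 CPM (median 8.59), Ier2 12.9 to 21 CPM (median 14.6) and 10.6 to 22.2 CPM (median 16.5), and Dusp1 42.5 to 62 CPM (median 47.6) and 43.8 to 82.9 CPM (median 63.2).

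On the control diet the mother's restriction left no called difference in eWAT. In CR20-CTRL against FED-CTRL 0 of 10 members and 0% of genes passed in edgeR, with Ier2 closest (log2 fold change 0.31 ± 0.218, adjusted p = 0.89). At an unadjusted p under 0.05 there were 0 members and 1180 genes, and limma voom and DESeq2 called 0 members. The groups of all 10 overlapped, where 0.244% of genes did not.

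Under the high-fat diet CR20 eWAT held less Atf3 and Egr2 RNA than FED eWAT. In CR20-HFD against FED-HFD, 2 of 10 members fell, where 7.29% of 15964 genes were called lower (9.73% in either direction). Atf3 changed by -2.17 ± 0.430 (log2, edgeR adjusted p = 0.00189). No CR20-HFD mouse reached the lowest FED-HFD mouse (exact permutation p = 0.00216), which made it the 1 member of 10 whose groups did not overlap, against 6.66% of genes. Egr2 changed by -2.29 ± 0.480 (edgeR adjusted p = 0.00278). Its groups overlapped by 1 mouse on each side, 7.02 CPM in CR20-HFD mouse 45 against 6.93 CPM in FED-HFD mouse 40 (exact permutation p = 0.00433). Fos (log2 fold change -1.27, adjusted p = 0.0556) and Junb (-0.72, adjusted p = 0.0587) fell just short in edgeR. This comparison shares its FED-HFD mice with the diet comparison in FED mice, so opposite signs in the 2 comparisons are not separate evidence.

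The difference between the diet effects of CR20 and FED mice was tested as an interaction, which 2 of 10 members passed, both lower in CR20, where 2.34% of genes were called lower (2.42% in either direction, and 0.0877% higher). It was -2.80 ± 0.666 (log2, edgeR adjusted p = 0.0351) for Egr2 and -2.30 ± 0.595 (adjusted p = 0.043) for Atf3. Without mouse 23 the values were -2.27 (adjusted p = 0.0506) and -1.55 (adjusted p = 0.0676). With limma voom and quality weights they were -1.74 (adjusted p = 0.147) and -1.43 (adjusted p = 0.116), and without quality weights the adjusted p was 0.166 and 0.161. When each mouse was left out in turn the count of 2 fell in 17 of 24 fits, to 0 for 11 single mice (for example mouse 46, edgeR adjusted p = 0.0566 for Egr2 and 0.0687 for Atf3), so this call depends on the test and on single mice. Without mice 23 and 45 together both were called (adjusted p = 0.0371 and 0.0422). In both pairwise comparisons Atf3 and Egr2 kept their calls without mouse 23: Atf3 was 1.53 in FED-HFD against FED-CTRL and -1.44 in CR20-HFD against FED-HFD, and Egr2 was 1.70 and -1.78.

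**Figure D2:**
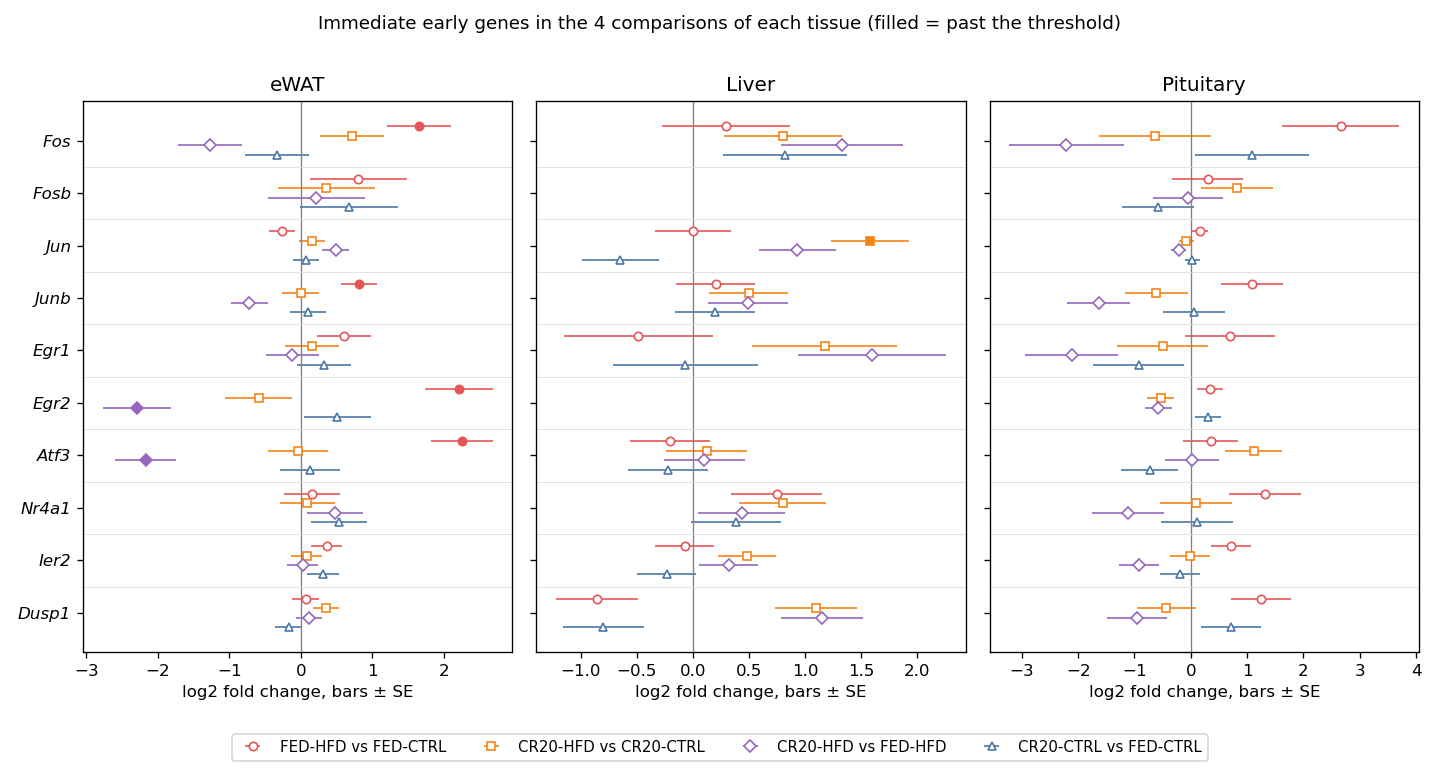
Log2 fold changes (points) with SE (bars) of each gene in 4 comparisons per tissue, filled where the gene passed the test. Filled points are Atf3, Egr2, Fos and Junb in eWAT of FED mice, Atf3 and Egr2 in CR20-HFD against FED-HFD eWAT, and Jun in liver of CR20 mice.

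Macrophage markers moved in the same comparisons as Atf3 and Egr2. The summed level of 12 macrophage markers, all 12 of which were detected in eWAT, was 1648 to 2363 CPM (median 2033) in FED-CTRL, 2335 to 10076 CPM (median 3589) in FED-HFD, 1351 to 2714 CPM (median 1952) in CR20-CTRL and 1424 to 2299 CPM (median 1827) in CR20-HFD. In FED-HFD against FED-CTRL 7 of 12 were called higher, in CR20-HFD against FED-HFD 8 of 12 lower, and in the interaction 4 lower. Over FED-HFD mice 10, 11, 12, 13, 23 and 40 the sum was 2699, 2335, 4137, 3781, 10076 and 3398 CPM, so that mouse 23 was highest and mice 12 and 13 came next, as for Atf3 and Egr2. Mouse 40 followed in the sum and in Atf3, but was the lowest of FED-HFD in Egr2 (6.93 CPM) and in 6 of 10 members. Other markers and measures moved in the same comparisons. Of 6 hepatocyte markers tested in eWAT, 2 were called higher in FED-HFD against FED-CTRL, 1 higher and 2 lower in CR20-HFD against FED-HFD, and 2 lower in the interaction. Their summed level was 66.9 to 263 CPM (median 164) in FED-CTRL, 6.52 to 817 CPM (64.8) in FED-HFD, 136 to 949 CPM (480) in CR20-CTRL and 96.4 to 984 CPM (184) in CR20-HFD. The 817 CPM was that of mouse 10, and the FED-HFD median was below that of FED-CTRL despite the calls. Of 8 endothelial markers, 4 were called higher in CR20-HFD against FED-HFD, with sums of 506 to 776 CPM against 203 to 498 CPM. The share of counts on mitochondrial genes was 1.69% in mouse 23, the lowest of eWAT, and 2.51% to 3.65% in the other FED-HFD mice. The part of these markers and measures in the result was not tested.

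The wider pathway lists were counted in the same way. Of 42 other early response genes tested, 4 rose in FED-HFD against FED-CTRL: Myc (log2 fold change 0.95), a growth regulator, Ier5 (0.81), the kinase gene Plk2 (1.19) and Npas4 (1.84), best known from active neurons. Of 14 MAPK phosphatases and feedback inhibitors, Dusp8 (-1.03) and Dusp4 (-0.65) fell, both of them genes of the Dusp1 family. Of 23 upstream kinases and factors, Mrtfa (0.79), a serum response factor coactivator, and the kinase gene Rps6ka1 (0.89) rose. Of 14 bZIP partners 1 rose (Batf, 0.94). Heat shock and glucocorticoid response genes had 0 calls of 10 and 0 of 12 in edgeR.

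In CR20-HFD against FED-HFD eWAT, Npas4 (-1.95), Rps6ka1 (-1.08), Mrtfa (-0.78) and Batf (-0.89) fell, the last from the AP-1 partner list. The phosphatase gene Dusp8 (0.64) and the inhibitor gene Spry4 (0.74) rose and Spred1 (-0.69) fell. Ccn1 (1.31) and Klf4 (0.60) rose among the other early response genes. In the interaction Ccn1 (1.64), Dusp8 (1.21) and Mrtfa (-1.05) passed. These counts of 1 to 4 per list stand beside the 8.01%, 9.73% and 2.42% of all genes called. Of the 21 calls on these lists over the 3 comparisons, 14 were lost without mouse 23, among them Npas4, Plk2, Myc and Ier5 in FED-HFD against FED-CTRL. Without mouse 13 the number lost was 5, among them Npas4 (edgeR adjusted p = 0.0909 in FED-HFD against FED-CTRL and 0.0629 in CR20-HFD against FED-HFD). Npas4 was 1.86, 1.02, 3.25, 3.96, 8.26 and 0.709 CPM in FED-HFD mice 10, 11, 12, 13, 23 and 40. The eWAT library of mouse 13 held 31.9 CPM of neuron markers (group median 0.559) and 14.7 CPM of posterior and intermediate pituitary markers (group median 0.473), and their part in the result was not tested.

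In liver 8 of 10 members were tested. Fosb and Egr2 failed the filter on low counts, with at most 1.12 and 0.654 CPM, and were at 0 in 8 and 3 of 24 libraries. Jun was the 1 member that passed in any liver comparison, and it rose in CR20-HFD against CR20-CTRL. In CR20-CTRL mice 4, 5, 33, 47, 48 and 49 it was 6.77, 12.8, 13.3, 11.1, 9.84 and 5.26 CPM, and in CR20-HFD mice 6, 7, 31, 32, 45 and 46 it was 22.8, 24.5, 9.65, 13.9, 40.6 and 64.6 CPM. Mouse 31 lay within the CR20-CTRL range, and mice 45 and 46 were highest. The log2 fold change was 1.58 ± 0.347 (edgeR adjusted p = 0.0379, exact permutation p = 0.0173). This was 1 of 8 members called higher, against 0.138% of 13787 genes (0.522% in either direction, and 0.384% lower). Without mouse 46 it was 1.18 (adjusted p = 0.102), without mouse 45 1.46 (adjusted p = 0.08) and without both 0.85 (adjusted p = 0.333). The 8 members all had positive log2 fold changes in this comparison (median 0.80, against 0.00 for all genes, of which 49.5% were positive), and 7 did not pass. The members share libraries and mice, so their signs are not separate evidence. All 8 were also positive in liver in CR20-HFD against FED-HFD and in the interaction (51.7% and 49.7% of all genes), where no member passed. Those comparisons share the CR20-HFD mice.

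In FED mice, liver Jun was 10.5 to 22.1 CPM (median 13.5) on the control diet and 10.5 to 23.2 CPM (median 14.3) on the high-fat diet. The difference between the diet effects of CR20 and FED mice was 1.58 ± 0.484 (log2, edgeR adjusted p = 0.999) for Jun and did not pass. Among the other AP-1 genes, Fos was 0.656 to 1.78 CPM (median 0.839) in FED-CTRL, 0.717 to 2.03 CPM (1.31) in FED-HFD, 0.408 to 4.02 CPM (1.36) in CR20-CTRL and 1.07 to 10.8 CPM (1.65) in CR20-HFD. Junb was 7.87 to 29.9 CPM (median 15.7), 15.1 to 28.6 CPM (19.4), 13.5 to 31.4 CPM (18.9) and 10.1 to 70.2 CPM (23.2) in the same order. The highest Fos and Junb values were those of CR20-HFD mouse 45, and the groups overlapped.

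Of the remaining liver members, Egr1 was 0.99 to 11.5 CPM (median 2.01) in FED-CTRL, 0.444 to 3.63 CPM (2.53) in FED-HFD, 1.14 to 9.42 CPM (2.33) in CR20-CTRL and 1.01 to 20 CPM (3.89) in CR20-HFD. Atf3, which rose in FED eWAT, was 2.42 to 5.84 CPM (median 4.14), 0.554 to 5.52 CPM (3.58), 1.68 to 7.74 CPM (2.95) and 3.01 to 5.03 CPM (3.75). Nr4a1 was 0.152 to 1.33 CPM (median 0.646), 0.872 to 1.45 CPM (1.24), 0.571 to 1.7 CPM (0.845) and 0.387 to 2.93 CPM (1.52). All groups overlapped for these genes. Ier2, the most abundant member per length in liver, was 29.6 to 60.8 CPM (median 38.8), 16.9 to 65.1 CPM (41.3), 20.7 to 49.5 CPM (33.8) and 31.8 to 68 CPM (48.6).

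Dusp1 had the smallest p among members in the other liver comparisons. It was 19.9 to 39.5 CPM (median 27.8) in FED-CTRL, 8.85 to 30.9 CPM (12.4) in FED-HFD, 7.26 to 28.9 CPM (16.2) in CR20-CTRL and 14.6 to 64.9 CPM (32.9) in CR20-HFD. Its medians were thus lower in FED-HFD and CR20-CTRL than in the other groups, with overlap. In FED-HFD against FED-CTRL its log2 fold change was -0.86 ± 0.364 (edgeR adjusted p = 0.628), with 0 of 8 members called and 0.109% of genes (0.029% higher and 0.0798% lower). In CR20-CTRL against FED-CTRL it was -0.80 ± 0.363 (adjusted p = 0.999), in CR20-HFD against FED-HFD 1.154 ± 0.366 (adjusted p = 0.9998) and in the interaction 1.96 ± 0.515 (adjusted p = 0.999). In each of these 3 comparisons 0 of 8 members and 0% of genes passed. At an unadjusted p under 0.05, edgeR gave 1, 1, 4 and 2 of 8 members in these comparisons, in the order given, beside 918, 299, 493 and 242 of 13787 genes, and limma voom and DESeq2 called 0. The wider pathway lists had 0 genes called in liver in any comparison.

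**Figure D3:**
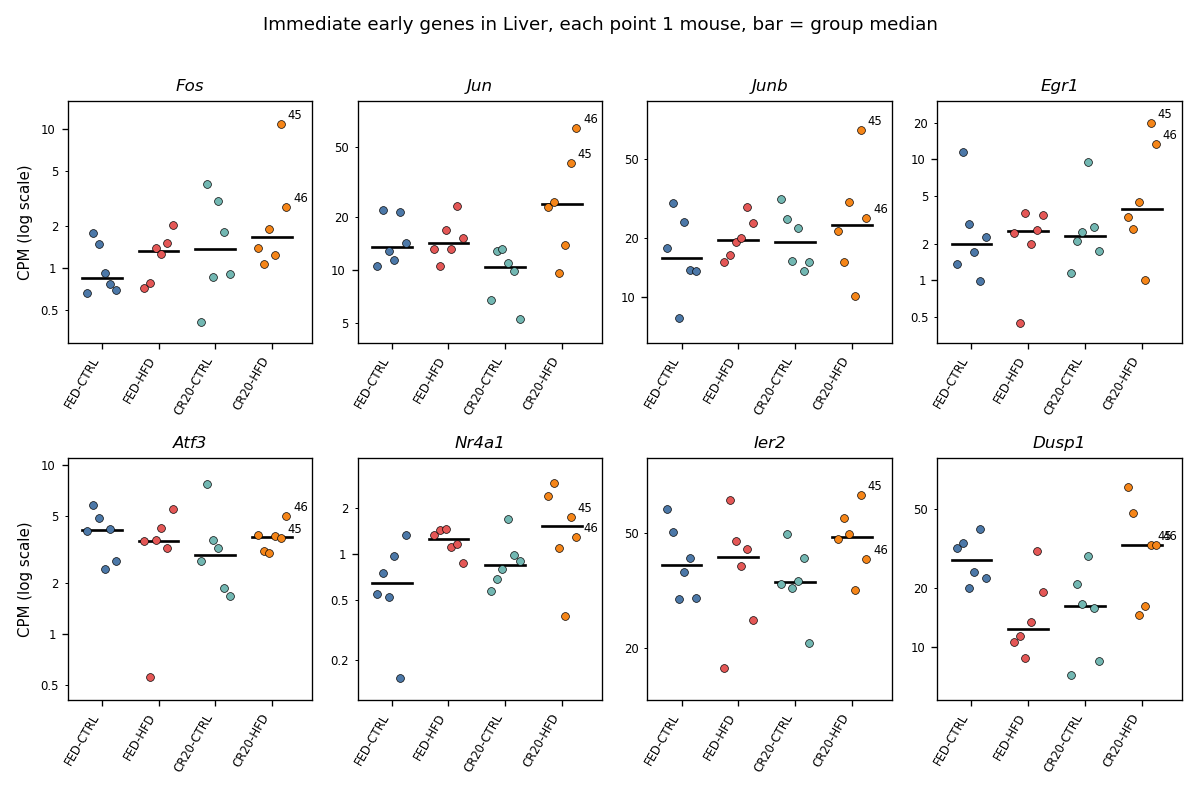
Each point is 1 mouse, with its level in CPM on a log axis and the group median as a bar, for the 8 genes tested in liver. Jun of CR20-HFD mice runs from 9.65 to 64.6 CPM, against 5.26 to 13.3 CPM in CR20-CTRL.

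In the pituitary no member and 0% of 16657 genes passed in any of the 5 comparisons in edgeR, and limma voom and DESeq2 called 0 members. None of the genes on the wider pathway lists passed either. The range between mice of 1 group was wide. Fos was 7.33 to 26.2 CPM (median 20.0) in FED-CTRL. In FED-HFD it was 4.22 to 590 CPM (median 13.1), in CR20-CTRL 1.52 to 188 CPM (7.21) and in CR20-HFD 5 to 74.7 CPM (13). The highest values were those of FED-HFD mouse 12, CR20-CTRL mouse 47 and CR20-HFD mouse 31, and the next after mouse 12 was 15.9 CPM and after mouse 47 7.60 CPM.

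Junb showed the same mice at the top: 27.1 to 103.9 CPM (median 46.5) in FED-CTRL, 28 to 458 CPM (38.5) in FED-HFD, 26.8 to 162 CPM (32.5) in CR20-CTRL and 21.7 to 60.6 CPM (33.5) in CR20-HFD. Fosb was 1.36 to 26.4 CPM (median 5.08), 1.51 to 36.9 CPM (6.42), 1.18 to 15.2 CPM (3.62) and 5.12 to 17.3 CPM (10.3). Jun, by contrast, kept to 15 to 25.4 CPM (median 19.5), 17.5 to 30.4 CPM (21), 16.3 to 24.1 CPM (20.8) and 14.7 to 24.4 CPM (19.8). Its groups all overlapped within this narrow range.

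Egr1 was 25.1 to 310 CPM (median 79) in FED-CTRL, 19.2 to 848 CPM (61.1) in FED-HFD, 8.42 to 242 CPM (23.9) in CR20-CTRL and 17.2 to 126 CPM (34.8) in CR20-HFD. Egr2, its close relative, was 3.03 to 4.94 CPM (median 3.76), 3.57 to 6.97 CPM (4.44), 2.62 to 8.91 CPM (4.33) and 2.34 to 4.3 CPM (3.44). Mice 12, 47 and 31 were again the highest of their groups in Egr1. The range of Egr2 was narrower than that of Egr1, with its highest value in CR20-CTRL mouse 48. Nr4a1 was 18.9 to 147 CPM (median 38.6), 6.88 to 208 CPM (160), 5.71 to 209 CPM (33.8) and 26 to 127 CPM (47) in the same order. Single mice stood at the ends of its ranges: FED-HFD mouse 10 at 6.88 CPM with the next at 69.7 CPM, FED-CTRL mouse 41 at 147 CPM with the next at 48.1 CPM, and CR20-CTRL mouse 48 at 209 CPM with the next at 44.7 CPM.

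Ier2 was 20.4 to 45.1 CPM (median 33.3) in FED-CTRL, 24 to 173 CPM (30.5) in FED-HFD, 19.3 to 51.1 CPM (25.9) in CR20-CTRL and 20.9 to 37 CPM (28.6) in CR20-HFD. Dusp1 was 11.8 to 23.4 CPM (median 18.5), 12.2 to 156 CPM (20.8), 9.86 to 103 CPM (14.1) and 14.3 to 37.8 CPM (19.1). Mouse 12 and mouse 47 were the highest of their groups in both genes. Atf3, the least abundant member, was 0.441 to 3.7 CPM (median 0.872), 0.214 to 5.66 CPM (1.37), 0.6 to 1.36 CPM (0.78) and 1.22 to 2.79 CPM (1.85).

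The member with the smallest p was Fos in FED-HFD against FED-CTRL (log2 fold change 2.67 ± 1.04, edgeR adjusted p = 0.393), a value set by mouse 12: without that mouse it was -0.57 (adjusted p = 0.915). In CR20-HFD against FED-HFD it was Junb (-1.64 ± 0.560, adjusted p = 0.53), and without mouse 12 -0.16 (adjusted p = 0.982). Egr2 came first in CR20-HFD against CR20-CTRL (-0.54 ± 0.234, edgeR adjusted p = 0.64) and in the interaction (-0.88 ± 0.329, adjusted p = 0.36), and Atf3 in CR20-CTRL against FED-CTRL (-0.73 ± 0.514, adjusted p = 0.479). At an unadjusted p under 0.05 there were 4, 5, 2, 4 and 0 of 10 members, in the order given, beside 1606, 1127, 1212, 1833 and 2887 of 16657 genes. The exact permutation test for Atf3 in CR20-HFD against CR20-CTRL gave p = 0.00649 (edgeR adjusted p = 0.663). Over all members, tissues and pairwise comparisons 16 of 112 exact tests were under 0.05 before adjustment. These tests were run on members only, so no share over all genes stands beside the count. The comparisons share groups of mice and the genes vary together, so the tests are not separate.

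The pituitary libraries of mice 12 and 47 held 20974622 and 20669704 counts. The share of counts on mitochondrial genes was 1.46% in mouse 12, the lowest of FED-HFD (group median 1.97%), and 1.92% in mouse 47 (group median 1.80%). Summed anterior pituitary markers were 362589 CPM in mouse 12 (group median 315849 CPM) and 291295 CPM in mouse 47 (group median 321185 CPM). Posterior and intermediate lobe markers were 494 CPM in mouse 12, where FED-HFD ran from 444 to 558 CPM (median 461), and 671 CPM in mouse 47, where CR20-CTRL ran from 475 to 816 CPM (median 506). Neuron markers were 302 CPM (group median 304) and 309 CPM, the lowest of CR20-CTRL (group median 318). The part of lobe content and of the mitochondrial share in their values was not tested.

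**Figure D4:**
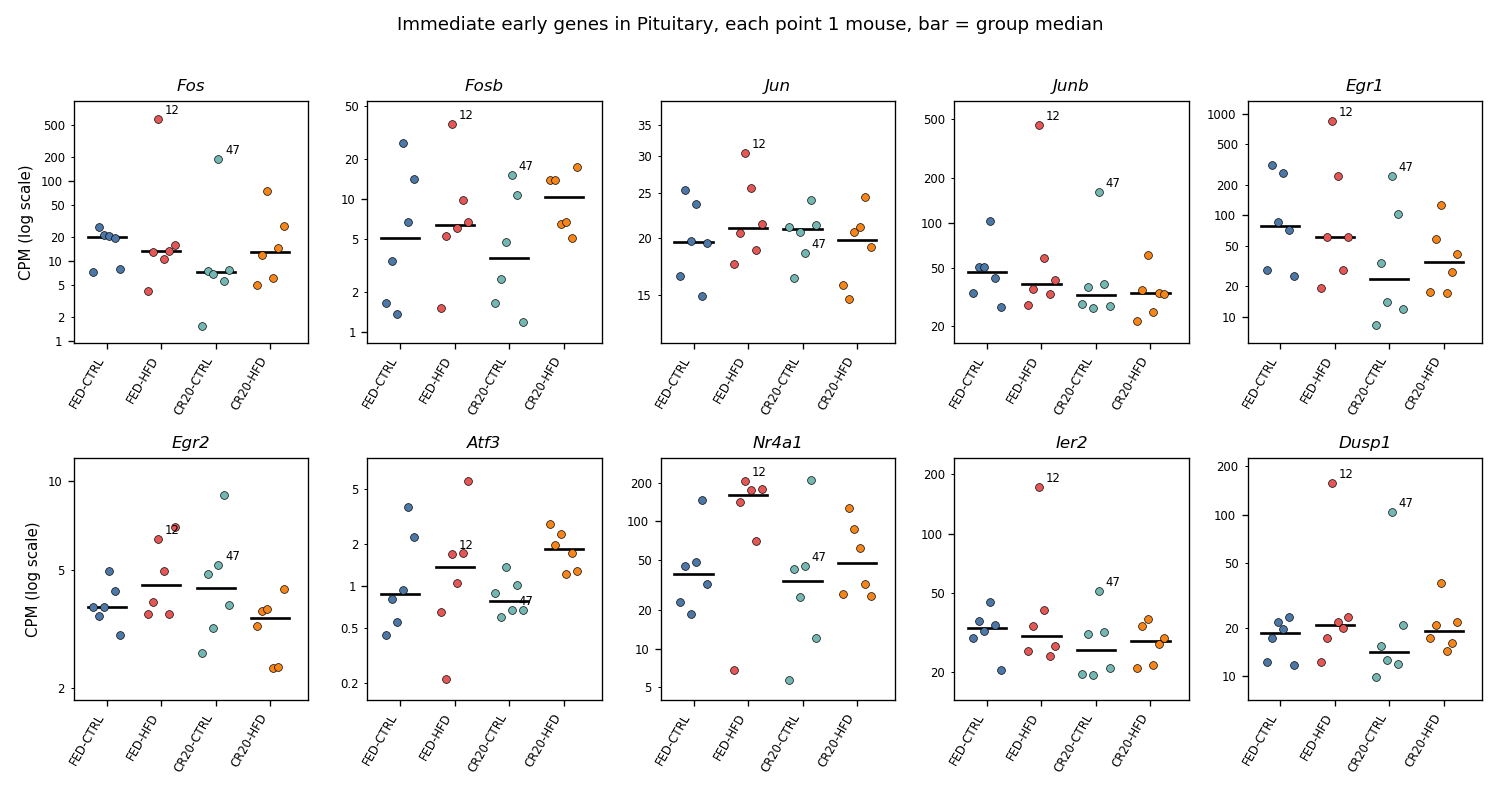
Each point is 1 mouse, with its level in CPM on a log axis and the group median as a bar, for the 10 genes in the pituitary. FED-HFD mouse 12 and CR20-CTRL mouse 47 lie far above their groups in Fos, Junb and Dusp1, while Jun keeps to 14.7 to 30.4 CPM.

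The spread was measured as the biological coefficient of variation (BCV), the standard deviation between mice of a group relative to the mean after counting error is removed, as edgeR estimates it. In the pituitary it ran over the 10 members from 16.5% for Jun to 109% for Fos, with a median of 61.8%, against 14.5% for the median gene. In eWAT it ran from 22.4% for Jun to 77.7% for Fosb (median 45.4%, all genes 20.8%). In liver the 8 members ran from 31.9% for Ier2 to 75.1% for Egr1 (median 41.6%, all genes 26.7%). Among the 10% of genes with the widest spread in a tissue were 8 of 10 members in the pituitary, 4 of 10 in eWAT and 2 of 8 in liver. The standard deviation of log2 CPM gave the same counts. Without mice 12 and 47 the pituitary count was 5 of 10, with a median BCV of 42.4% (all genes 14.7%). Fos then had 55.6%, Junb 29.1%, Dusp1 25.2% and Ier2 20.7%, while Nr4a1 had 75.2% (73.7% with these mice), Egr1 74.5% (90.4%), Fosb 65% (74.7%) and Atf3 58.5% (56.7%). Without mice 23 and 45 the eWAT count was 2 of 10 (Fosb and Egr2, median BCV of the members 34.9%), and without mice 45 and 46 the liver count was 1 of 8 (Egr1, median 42.7%).

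By gene, the pituitary BCV of Egr1 was 90.4%, of Fosb 74.7%, of Nr4a1 73.7%, of Junb 63% and of Dusp1 60.5%. Atf3 (56.7%) and Ier2 (41.1%) followed, and Egr2 had 26.5%, above 80.6% of genes. In eWAT Egr2 (54.3%), Fos (51.7%), Atf3 (48.8%) and Nr4a1 (46.2%) followed Fosb, and in liver Fos (61.6%) and Dusp1 (43%) followed Egr1. Other early response genes were among these widest 10% in 11 of 42 cases in the pituitary, 7 of 36 in liver and 2 of 42 in eWAT, among them the Nr4a1 relatives Nr4a2 and Nr4a3 in the pituitary. The upstream kinases and factors were there in 0 of 23, 1 of 23 and 0 of 23 cases. Heat shock genes were there in 3 of 10, 4 of 10 and 1 of 10 cases, bZIP partners in 4 of 14, 2 of 14 and 1 of 14, glucocorticoid response genes in 1 of 12, 3 of 12 and 2 of 12, and MAPK phosphatases and feedback inhibitors in 2 of 14, 0 of 11 and 0 of 14, by the standard deviation of log2 CPM and in the same order of tissues. The lists share genes: Dusp1, a member, is also on the glucocorticoid list and is its 1 pituitary case, and the other early response genes share 4 genes with the bZIP partners, 3 with the glucocorticoid list and 1 with the upstream factors.

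**Figure D5:**
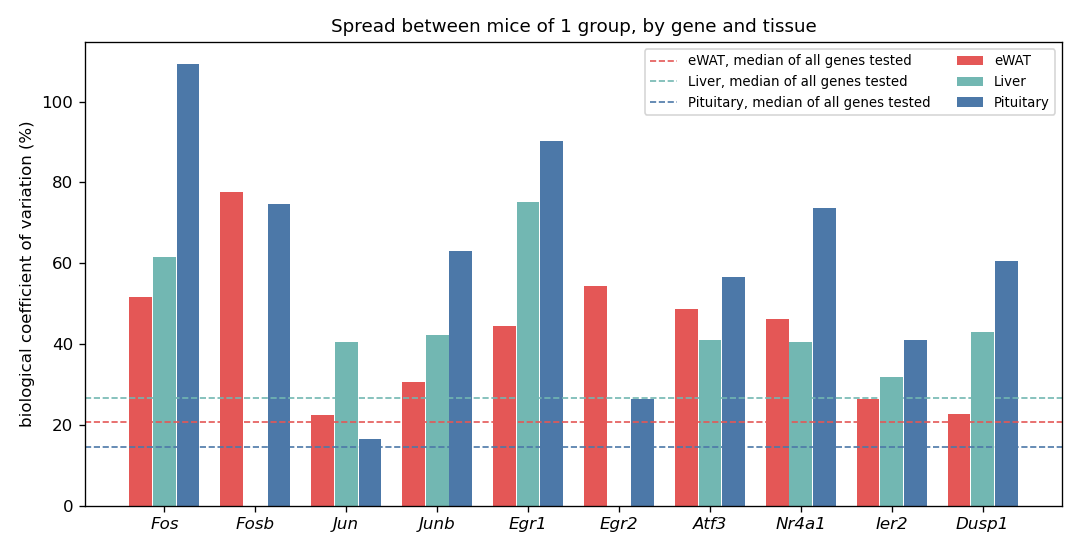
Bars give the BCV in percent of each gene in each tissue, and dashed lines the median BCV of all genes tested in that tissue. Pituitary bars reach 109% for Fos and stay at 16.5% for Jun.

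Members were compared in pairs for how they varied from mouse to mouse within a tissue. With group means removed, the median Pearson correlation of log2 CPM over 24 libraries was 0.643 across the 45 pairs of members in eWAT, 0.477 across 45 pairs in the pituitary and 0.315 across 28 pairs in liver. Of these pairs 31, 21 and 6 exceeded 0.5, which is 68.9%, 46.7% and 21.4%, against 7.14%, 3.66% and 14.4% of all gene pairs. The closest pairs were Fos and Dusp1 (0.958) and Junb and Ier2 (0.954) in the pituitary, Junb and Atf3 (0.842) in eWAT and Fos and Egr1 (0.726) in liver. The points of each correlation share libraries and therefore depth and tissue composition. Without mice 23 and 45 the eWAT median was 0.463 with 20 pairs above 0.5, without mice 12 and 47 the pituitary median was 0.432 with 17 pairs, and without mice 45 and 46 the liver median was 0.306 with 2 pairs. These were 44.4%, 37.8% and 7.14% of member pairs, against 6.92%, 4.36% and 15.4% of all gene pairs, so that in liver the share of member pairs was then below that of all gene pairs. Fos and Dusp1 then had 0.843 and Junb and Ier2 0.862 in the pituitary, Junb and Atf3 0.668 in eWAT and Fos and Egr1 0.621 in liver.

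The genes outside the set that were most like the members' mean, by Pearson correlation of log2 CPM over 24 libraries with group means removed, differed by tissue. In the pituitary they were Btg2 (0.894), Arc (0.764), Rasd1 (0.760), Sik1 (0.690) and 1700016P03Rik (0.685). In eWAT they were Fkbp1b (0.851), Ptchd1 (0.845), Pltp (0.845), Man2b1 (0.835) and Mtmr10 (0.832). In liver they were Ruvbl2 (0.681), Fgl1 (0.679), Orm2 (0.669), Sytl4 (0.666) and Lbp (0.663). For the same genes the values without the pair of mice named above were 0.543 to 0.753 in the pituitary, 0.71 to 0.816 in eWAT and 0.502 to 0.630 in liver.

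Because each mouse gave all 3 tissues, it could be asked whether a mouse high in a gene in 1 tissue was high in another. Over 24 mice with group means removed, 26 relations were computed, and 0 members passed an adjusted p of 0.05 in a permutation test within groups, while 0%, 0.188% and 0.603% of genes did for eWAT and liver, eWAT and pituitary, and liver and pituitary. At an unadjusted p under 0.05 there were 3, 2 and 1 members, beside 983 of 12801, 1079 of 14372 and 1151 of 12595 genes. Between eWAT and liver all 8 members had a positive r (median 0.354), where 50.9% of all genes did (median 0.005). Without mice 23 and 45 their median was 0.184, with 7 of 8 positive (all genes 51.4%, median 0.010). Ier2 had r = 0.56 and rho = 0.55 there (adjusted permutation p = 0.604 and 0.593), and r = 0.55 without the 2 mice farthest out in eWAT. Dusp1 had r = 0.51 and rho = 0.39 (adjusted permutation p = 0.611 and 0.831), and r = 0.39 without mice 23 and 45. Fos went from r = 0.35 to 0.05 without the same mice (rho = 0.22, adjusted permutation p = 0.733 and 0.962). Junb had r = 0.42 (rho = 0.32, adjusted permutation p = 0.612 and 0.901), and r = 0.10 without mice 23 and 45, on which it rests.

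Between eWAT and pituitary 5 of 10 members had a positive r (median -0.009), where 54.5% of all genes did (median 0.028). Jun had r = 0.54 and rho = 0.57 (adjusted permutation p = 0.561 and 0.554), and r = 0.54 without 2 mice, whereas Fosb had r = -0.43 and rho = -0.44 (adjusted permutation p = 0.66 and 0.717). Between liver and pituitary 6 of 8 were positive, with a median of 0.255, where 60.7% of all genes were positive with a median of 0.068. Egr1 was the member counted at an unadjusted p under 0.05 there (r = 0.42, unadjusted and adjusted permutation p = 0.0397 and 0.51). Its rho was 0.38 (adjusted permutation p = 0.596), and without mice 15 and 45 its r was 0.42 (unadjusted permutation p = 0.0689). Fos had r = 0.42 and rho = 0.60 between liver and pituitary (adjusted permutation p = 0.56 and 0.23, unadjusted p = 0.0566 and 0.00371). Without mice 5 and 45 its r was 0.63 (unadjusted permutation p = 0.00593). Of the mice that stood apart, mouse 45 was the highest of its group in 9 of 10 members in eWAT, 4 of 8 in liver and 1 of 10 in the pituitary. Mouse 23 was the highest in 8 of 10, 3 of 8 and 0 of 10, mouse 12 in 1 of 10, 2 of 8 and 8 of 10, and mouse 47 in 1 of 10, 3 of 8 and 6 of 10, in the same order of tissues.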

How the data were processed

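RNA-seq was done on eWAT, liver and pituitary of 24 mice. The authors aligned trimmed reads to GRCm39 with STAR and deposited raw counts per gene from featureCounts. The strand setting was not given, so reads of Junb and Prdx2, or of Dusp1 and Ergic1, which overlap on opposite strands, may not be separated. Total counts were 9842813 to 27601208 per library. Names and places are from GENCODE (GRCm39), which named 54749 of 55416 identifiers. Promoters were read from the GRCm39 sequence.

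Counts were tested per tissue (24 libraries, 4 group means, filterByExpr, TMM) with edgeR 4.0.16 quasi-likelihood in R 4.3.3, and called at an adjusted p (Benjamini-Hochberg over all genes) of at most 0.055 and a log2 fold change of at least 0.58, thresholds taken from the study's methods. The tissue comparison blocked on the mouse, because same-numbered libraries come from 1 animal. Groups within a tissue hold different mice. CPM used the totals of genes that passed the filter, scaled by TMM within each tissue. limma 3.58.1 (voom) and DESeq2 1.42.0 were alternatives, beside other filters, scalings, fits and mice left out. Leaving out mice 23 and 45, 45 and 46, or 12 and 47 together, and mouse 13 or 23 for the gene lists, was chosen after seeing the data. Correlations used 100000 permutations. The scripts were tested on simulated data.

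Members and lists were chosen with earlier results of these data known. Fold changes with SE are given for called members and for the member with the smallest p of each comparison. From other lists at most 6 called genes per comparison are named, and the 5 genes most like the members per tissue.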

Additional observations from a re-analysis of the deposited data

Results flagged for a closer look

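Of 112 groups of 6 mice tested for a mouse far from the rest (the gap to the nearest mouse divided by the range of log2 CPM), 10 passed Dixon's 95% critical value. Chance passes about 1 group in 20, and these genes move together, so the cases are not separate. In the pituitary, FED-HFD mouse 12 was far above its group in Fos (gap 0.733 of the range), Junb (0.743), Ier2 (0.726) and Dusp1 (0.746). CR20-CTRL mouse 47 was far above its group in Fos (0.672), Junb (0.794) and Dusp1 (0.685). FED-HFD mouse 10 was far below its group in pituitary Nr4a1 (0.678). Mouse 10 was the lowest of its group in 8 of 10 members in the pituitary, and its library had the most adipocyte marker RNA (166 CPM, group median 29.1) and smooth muscle marker RNA (20.1 CPM, group median 10.2) of the group. In liver, FED-HFD mouse 11, whose library was the shallowest at 9842813 counts, was far below its group in Egr1 (0.695) and Atf3 (0.751). The part of these markers and of depth in these values was not tested.

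The effect of the high-fat diet in eWAT differed between CR20 and FED mice by the edgeR interaction test for Egr2 (difference -2.8 on the log2 scale) and Atf3 (-2.3). These calls were lost with limma voom (adjusted p = 0.147 for Egr2 and 0.116 for Atf3 with quality weights, 0.166 and 0.161 without), and fewer than 2 members were called in 17 of 24 fits that left out 1 mouse. The summed macrophage markers of eWAT moved with both, with medians of 3589 CPM in FED-HFD and 1827 CPM in CR20-HFD, and their part in the difference was not tested.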

How the results depend on the processing

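Atf3 and Egr2 kept their calls in 35 of 35 alternatives in eWAT FED-HFD against FED-CTRL (log2 fold changes 1.53 to 2.43 and 1.70 to 2.39) and in CR20-HFD against FED-HFD (-2.34 to -1.44 and -2.51 to -1.78). In FED-HFD against FED-CTRL the count of 4 members was 2 to 4 when each mouse was left out in turn, with 2 without mouse 23. Junb lost its call in 13 of 35 alternatives and Fos in 1, the fit without mouse 23. In CR20-HFD against FED-HFD the count of 2 became 4, adding Fos and Junb, with DESeq2, with DESeq2 size factors in edgeR, and with a filter of over 1 CPM in 6 libraries, and was 2 to 4 with mice left out (4 without mouse 10, 11, 40, 45 or 5). The interaction count of 2 was 0 with limma voom with and without quality weights and 0 to 2 with mice left out, lower in 17 of 24 cases (1 without mouse 12, 13, 14, 23, 24 or 4, and 0 without mouse 15, 16, 31, 32, 41, 42, 46, 47, 49, 5 or 7). In liver, CR20-HFD against CR20-CTRL gave 0 in place of 1 with voom without weights, with only the groups compared (Jun adjusted p = 0.262) and without mice 45 and 46 together, and 0 to 1 with mice left out (0 without mouse 45, 46, 47, 49, 4 or 7). Pituitary Fos in FED-HFD against FED-CTRL reversed to -0.57 without mouse 12, the lowest of a range that reached 2.92 with mice left out in turn, and to -0.57 without mice 12 and 47 together. Without the pairs of mice that stood apart, members among the widest 10% numbered 2 in place of 4 in eWAT, 1 in place of 2 in liver and 5 in place of 8 in the pituitary, and member pairs above r = 0.5 numbered 20 in place of 31 in eWAT and 2 in place of 6 in liver. The cause of these changes was not tested.

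Between tissues, the fit with no replicate block called 9, 8 and 9 of 10 members, against 9, 8 and 8 with it. In pituitary against liver the 8 were not the same genes: without the block Dusp1 lost its call (-0.40, edgeR adjusted p = 0.0779) and Junb gained one (0.79, adjusted p = 0.00111). The counts of members called were otherwise within 1.5 times of those reported in 513 of 555 recomputed counts, most of them 0 throughout, which says little about stability. Liver had the lowest median total of the tissues (14479037 counts), and Fosb and Egr2 were also low there. Their medians over 24 libraries were 0.128 and 0.226 CPM in liver, against 3.09 and 5.68 CPM in eWAT. In liver both were near the 0.151 to 0.305 CPM that 3 counts make there by unscaled totals, and they failed the filter. With no filter edgeR called neither in any liver comparison. The smallest unadjusted p was 0.0177 for Fosb (log2 fold change 2.44 in CR20-HFD against FED-HFD, adjusted p = 0.811) and 0.0712 for Egr2 (1.21 in FED-HFD against FED-CTRL, adjusted p = 0.804, with medians of 0.400 and 0.102 CPM). The limit of 3 counts covers counting error only, not the spread between mice.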
